A study of Mus musculus with 12 samples.

Results

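The comparison set 2 RNA-seq libraries of adherent neural stem (ANS) cells kept for 10 days in medium B (T3, replicates 1 and 4) against 4 libraries of the same cells after 2 days in that medium (T2, replicates 1 to 4), 6 of the 12 libraries of the series. These 6 were chosen by the time point in their labels. ANS cells are neural stem cells that grow as an attached layer, here derived from E14.5 mouse embryonic brain. All 6 cultures had left growth medium (20 ng/ml each of FGF2 and EGF), passed through medium D1 (10 ng/ml FGF2 and 2 ng/ml EGF) and been plated on laminin in medium B, which holds 10 ng/ml FGF-2 and 20 ng/ml BDNF and no added EGF. T2 and T3 therefore differed by time in one medium, with FGF-2 present throughout. The labels describe T2 as without proliferation and at the start of differentiation, and T3 as overtly differentiated and GAD-positive. The labels count the 10 days from the change to medium B, whereas the text of the study can be read as 10 days after T2. The libraries of growing cells (T0, 3 libraries) and of cells in medium D1 (T1, 3 libraries) are given only as levels for orientation. The design text calls the replicates biological, and nothing says that a replicate number ties a T2 culture to a T3 culture.

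Cells that leave the cell cycle shut down the genes for DNA synthesis and for chromosome segregation, and many of the latter have promoters with a CHR element (TTTGAA) and CCAAT boxes. As neurons mature they assemble a spike-generating axon initial segment, held together by adhesion molecules such as neurofascin, and they acquire release machinery, receptors and ion channels. Neural stem cells of the ventral forebrain can also give rise to oligodendrocyte precursors and astrocytes, so genes of these lineages can share a culture with neuronal genes.

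The 6 libraries held 8910724 to 16048942 counts on genes, and 14926 to 16185 genes were detected at T2 and 15342 and 15991 at T3. The T3 pair were less alike than any 2 T2 libraries: across the 12599 genes tested, r of log2 CPM (read counts scaled to one common library total) was 0.970 for the T3 pair and 0.983 to 0.992 for the 6 T2 pairs, a description across genes that are not independent replicates. Of 9815 genes with a mean of at least 10 CPM in the T3 pair, 232 were at least 2-fold higher in T3 replicate 4 and 198 in T3 replicate 1 (4.38% in all), against 0.165% to 1.53% in pairs of T2 libraries. T3 replicate 1 correlated with T2 libraries at 0.972 to 0.984, and T3 replicate 4 at 0.955 to 0.970. Both T3 libraries are therefore given for each gene. In bulk RNA, fewer cells of a type and less RNA per cell cannot be told apart.

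The test (edgeR quasi-likelihood, Benjamini-Hochberg adjusted p under 0.05) called 63 genes higher at T3 (0.500% of 12599) and 87 lower (0.691%). All 63 had both T3 libraries above all 4 T2 libraries and all 87 had both below, against 12.9% and 12.8% of the genes tested. The genes were called on these same values, so their separation was nearly certain and is no further evidence for the calls. The median log2 fold change (T3 minus T2) of all genes tested was 0.0066. The p-values measure the spread between these cultures. With 2 libraries against 4 an exact two-sided rank test of a single gene could not go below 0.133. DESeq2, which tested 17964 genes, called 430 higher and 330 lower. The counts of calls depended on single libraries. Without T2 replicate 1, 2, 3 or 4 the test called 3, 5, 3 and 1 genes higher and 12, 7, 12 and 0 lower, the 0 beside 695 genes lower at an unadjusted p under 0.05. Without T3 replicate 1 it called 832 higher and 515 lower, and without T3 replicate 4 98 and 51. Of the 150 calls, 15, 12, 15 and 1 were kept without T2 replicates 1 to 4. Because their groups did not overlap, all 150 genes were nearly certain to keep their direction in all 6 of these fits, and did. Nfasc was called in all 6 of them, and Adcyap1r1, Apcdd1, Bmper, Ephb1, Frzb and Rnd3 in 5 of 6.

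**Figure D1:**
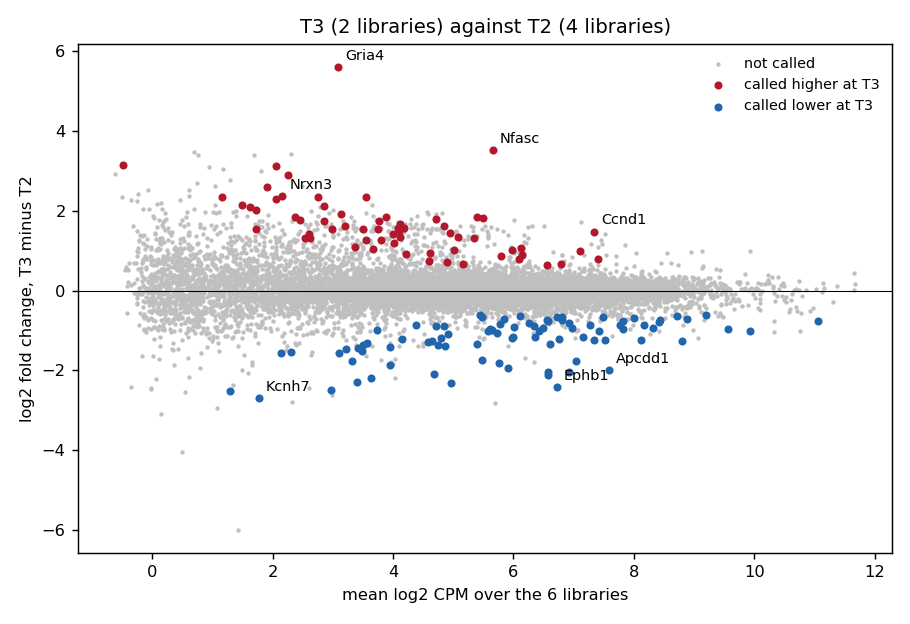
Each point is a gene, with its mean log2 CPM over the 6 libraries on the x axis and its log2 fold change, T3 minus T2, on the y axis. The 63 genes called higher are red and the 87 called lower blue. Gria4 (5.60) and Nfasc (3.52) lie highest among the called genes, and Kcnh7 (-2.71) and Ephb1 (-2.43) are among the lowest.

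The cell cycle programme that was low at T1 and T2 was higher again at T3. Of 76 listed genes of mitosis 75 were tested, and all 75 had a positive log2 fold change, with a median of 1.52. All 40 genes of DNA replication were positive too, with a median of 0.96. Over all genes tested 51.2% were positive. Of the mitosis genes 73 had both T3 libraries above every T2 library, and of the DNA replication genes 31, beside the 12.9% of all genes. At an unadjusted p under 0.05 the counts were 74 and 36, beside 9.45% of all genes. Past the adjusted threshold there were 3 mitosis genes and 4 replication genes, beside the 0.500% of all genes, and DESeq2 called 69 and 27. The 2 T3 libraries differed in size: the mitosis median against the T2 mean was 0.88 in replicate 1 and 1.99 in replicate 4, and the replication median 0.51 and 1.34. Replicate 4 was the higher of the pair for all 75 and all 40 genes. When T3 replicate 1 was set only against T2 replicates 1 and 2, 74 of 75 mitosis genes and 34 of 40 replication genes were still positive, with medians of 0.52 and 0.28.

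Against growing cells the levels remained partial. The median mitosis gene stood at 112 CPM in growing cells, 9.82 CPM in medium D1, 14.1 CPM at T2 and 43.0 CPM at T3. As a share of its T0 mean, the median gene was at 12.3% at T2, 21.8% in T3 replicate 1 and 49.0% in T3 replicate 4. For DNA replication genes these shares were 19.7%, 26.5% and 48.6%. Summed over the list, mitosis genes made up 1014 to 1795 CPM in the T2 libraries and 2528 and 5159 CPM in the T3 libraries.

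The promoters of these genes are shown because the members moved together. RefSeq lists a single promoter window (GRCm38.p6, 250 bases before to 50 after the gene start) for 58 of the 76 mitosis genes and 28 of the 40 replication genes. The letters TTTGAA, on either strand, occur in 41 of the 58 (70.7%), in 2 of the 28 (7.14%) and in 18.5% of 22862 windows of all genes. CCAAT, on either strand, occurs in 69.0%, 57.1% and 38.2%, and both motifs together in 56.9%, 7.14% and 7.21%. A match is a description of the letters and not of a site in use. The windows of 30 bases below run 5′ to 3′ on the strand of the gene, with the motif in capitals. Cdc20 (chr4:118437344-118437373, minus strand) and Kif18b (chr11:102925104-102925133, minus strand) show a TTTGAA near the gene start, and Spc25 (chr2:69206251-69206280, minus strand) and Rrm2 (chr12:24708192-24708221, plus strand) a CCAAT, which begins 55 and 50 bases before it.
Cdc20: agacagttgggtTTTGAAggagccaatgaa
Kif18b: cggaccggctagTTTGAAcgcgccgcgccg
Spc25: ggccgatatcaaCCAATccttgcacggaga
Rrm2: ggtcagcggcgtCCAATgggaggcgaggcc

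Cdc20, the activator of the anaphase-promoting complex, was at 17.9, 14.8, 11.4 and 12.5 CPM in T2 replicates 1 to 4 and at 27.2 and 70.7 CPM in T3 replicates 1 and 4. The groups did not overlap, and the log2 fold change was 1.79 ± 0.33 (SE; adjusted p = 0.0492). Kif18b, a kinesin that shortens microtubule plus ends in mitosis, stood at 22.9, 20.5, 18.6 and 14.8 CPM at T2 and at 43.4 and 60.2 CPM at T3 (log2 fold change 1.44 ± 0.19, adjusted p = 0.0292). It was the mitosis gene with the closest T3 pair among the 3 called. Spc25, a subunit of the kinetochore complex NDC80, went from 12.6, 10.6, 9.32 and 9.20 CPM to 18.9 and 40.1 CPM (log2 fold change 1.50 ± 0.28, adjusted p = 0.0492). Mki67, the proliferation antigen Ki-67, held 95.8, 114, 44.4 and 56.9 CPM at T2 and 195 and 314 CPM at T3, a log2 fold change of 1.72 ± 0.34 that missed the threshold (adjusted p = 0.0541). T2 replicates 1 and 2 were above replicates 3 and 4 for this gene, and Mki67 was measurable in all 4 libraries of the time point labelled as without proliferation.

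Among replication genes, Rrm2, the regulated subunit of ribonucleotide reductase, was at 27.2, 24.3, 16.4 and 20.4 CPM at T2 and at 41.9 and 118 CPM at T3 (log2 fold change 1.86 ± 0.35, adjusted p = 0.0497). Cdc45, part of the replicative helicase, went from 9.84, 8.08, 4.66 and 7.12 CPM to 16.3 and 33.6 CPM (log2 fold change 1.75 ± 0.33, adjusted p = 0.0497). Cdt1, which loads that helicase at origins, went from 11.9, 11.1, 7.31 and 9.02 CPM to 20.0 and 42.3 CPM (log2 fold change 1.66 ± 0.30, adjusted p = 0.0469). In these 3 genes T3 replicate 4 was far above replicate 1, and both stood above all of T2. Ccne1, the cyclin of S phase entry, had the smaller change, from 11.3, 13.1, 8.59 and 11.0 CPM to 21.7 and 28.8 CPM (log2 fold change 1.20 ± 0.20, adjusted p = 0.0437). At T0 these 4 genes were at 208, 72.7, 99.9 and 33.0 CPM on average, with T0 replicate 3 above the other two in each. Each of the 7 calls on mitosis and replication genes was lost when any T2 library was left out, and without T3 replicate 4 only Kif18b was still called. Leaving out T3 replicate 4 or T3 replicate 1 moved the log2 fold change over 0.92 to 2.42 for Rrm2, 1.14 to 2.19 for Cdc45, 1.02 to 2.11 for Cdt1, 0.95 to 2.33 for Cdc20 and 0.86 to 1.95 for Spc25. With T3 replicate 4 as the only T3 library 71 mitosis and 37 replication genes were called.

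**Figure D2:**
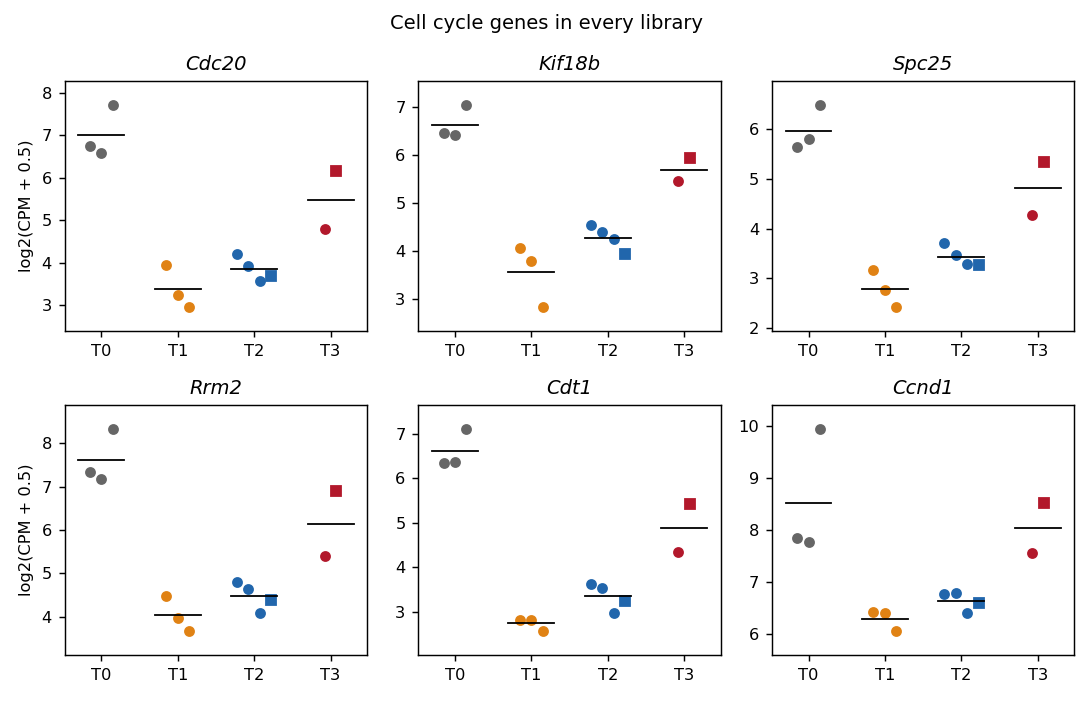
Points are single libraries, grouped by time point from T0 to T3, with log2(CPM + 0.5) on the y axis and the group mean as a line, and squares mark replicate 4. In all 6 genes both T3 libraries lie above all T2 libraries, and in all 6 replicate 4 is the higher T3 library, as for Cdc20 at 27.2 and 70.7 CPM.

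Of 22 tested G1 cyclins and CDK inhibitors 16 were positive, with a median of 0.31, and 1 was called, beside the 0.500% of all genes. At an unadjusted p under 0.05 there were 8 higher and 1 lower, and DESeq2 called 7 higher. The gene called by edgeR was Ccnd1, cyclin D1, the G1 cyclin that growth factors induce, at 108, 110.2, 84.1 and 96.4 CPM at T2 and 187 and 367 CPM at T3 (log2 fold change 1.48 ± 0.23, adjusted p = 0.0387). The call was kept without either T3 library and lost without any 1 of the 4 T2 libraries. Of 17 growth factor response genes, largely feedback targets of ERK, 13 were positive (median 0.39). In each direction 1 was called, beside 0.500% higher and 0.691% lower of all genes. Myc, a growth-promoting transcription factor, was at 134, 148, 124 and 127 CPM at T2 and 190.4 and 270.1 CPM at T3 (log2 fold change 0.79 ± 0.15, adjusted p = 0.0492). Il17rd, also known as Sef, an inhibitor of FGF signalling, fell from 199, 215, 260.1 and 214 CPM to 110.0 and 76.8 CPM (log2 fold change -1.24 ± 0.17, adjusted p = 0.0297). The list median was 0.22 in T3 replicate 1 and 0.78 in replicate 4. Of 11 immediate early genes none was called by edgeR (1 higher and 2 lower at an unadjusted p under 0.05, 0 and 1 by DESeq2), 6 were positive, and Jun was at 122, 124, 144 and 116 CPM at T2 and 139 and 133 CPM at T3.

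Among genes linked to neuronal maturation the calls were few, and they lay in genes of axonal and synaptic membranes. Bulk RNA does not show which cells held these transcripts. The rise with the smallest adjusted p was in Nfasc (chromosome 1, 134461268 to 134638374, minus strand, NCBIM37). It encodes neurofascin, an adhesion molecule of the axon initial segment and the node of Ranvier. Counts per gene do not separate the transcript forms of Nfasc, and assembly of an initial segment was not tested. Nfasc was at 12.4, 11.2, 8.77 and 11.4 CPM in T2 replicates 1 to 4, and at 141 and 111 CPM in T3 replicates 1 and 4. The log2 fold change was 3.52 ± 0.15 (adjusted p = 6.21e-05), between 3.34 and 3.68 when 1 library was left out. Its level was 0.338 CPM at T0 and 1.68 CPM at T1 on average, so each step of the series was higher than the one before.

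Gria4 (chromosome 9, 4417899 to 4796234, minus strand), an AMPA-type glutamate receptor subunit, had the largest log2 fold change, 5.60 ± 0.58 (adjusted p = 0.0162). It rested on 2 to 9 counts per library at T2 (0.482, 0.186, 0.640 and 0.552 CPM), against 37.4 and 9.19 CPM at T3. Replicate 1 was about 4-fold above replicate 4, and both were over 10-fold above every T2 library. Gria3, the subunit encoded on the X chromosome, had a close T3 pair, at 56.4 and 54.6 CPM against 29.5, 20.1, 22.9 and 15.6 CPM at T2 (log2 fold change 1.34 ± 0.21, adjusted p = 0.0395). Dlgap1, a scaffold that binds PSD-95, went from 3.86, 3.53, 2.38 and 3.37 CPM to 19.6 and 8.98 CPM (log2 fold change 2.13 ± 0.32, adjusted p = 0.0364). These were the 3 called among 28 tested glutamate receptor and postsynaptic genes, beside the 0.500% of all genes called higher, and 18 of the 28 were positive with a median of 0.18, beside 51.2% and 0.0066 over all genes. Leaving out T3 replicate 1 or 4 moved the log2 fold change over 4.25 to 6.27 for Gria4 and 1.45 to 2.57 for Dlgap1, and Gria4 was called in 4 of the 6 fits that each left out 1 library.

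On the presynaptic side 5 of 31 tested genes were called, 3 higher and 2 lower, beside 0.500% and 0.691% of all genes. Nrxn3, a neurexin that binds postsynaptic partners across the cleft, was listed at 0 in all 3 T0 libraries and stood at 1.93, 2.04, 1.00 and 2.08 CPM at T2 and 13.1 and 5.08 CPM at T3 (log2 fold change 2.36 ± 0.41, adjusted p = 0.0458). Rab3c, a vesicle GTPase, went from 3.19, 4.74, 4.02 and 3.56 CPM to 17.9 and 8.0 CPM (log2 fold change 1.75 ± 0.32, adjusted p = 0.0492). Rph3a, rabphilin, a partner of RAB3 proteins on vesicles, went from 8.4, 13.8, 8.50 and 9.20 CPM to 36.8 and 21.7 CPM (log2 fold change 1.56 ± 0.26, adjusted p = 0.0444). The 2 vesicle genes that fell did so in both T3 libraries. Sv2c, a vesicle glycoprotein, was at 26.0, 43.0, 31.4 and 33.7 CPM at T2 and 10.3 and 4.97 CPM at T3 (log2 fold change -2.10 ± 0.31, adjusted p = 0.0324). Cplx2, complexin 2, which clamps and triggers fusion, was at 117, 139, 142 and 155 CPM at T2 and 72.6 and 84.5 CPM at T3 (log2 fold change -0.81 ± 0.14, adjusted p = 0.0444). In the deposited FPKM, which divide by gene length, Sv2c averaged 6.44 at T2 and 1.71 at T3, Rph3a 1.62 and 4.57, and Cplx2 18.7 and 9.97, so Cplx2 remained the most abundant of the 3 per length. The order of Sv2c and Rph3a reversed. Leaving out T3 replicate 1 or 4 moved the log2 fold change over 1.51 to 2.87 for Nrxn3, 1.05 to 2.21 for Rab3c and -2.75 to -1.70 for Sv2c.

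**Figure D3:**
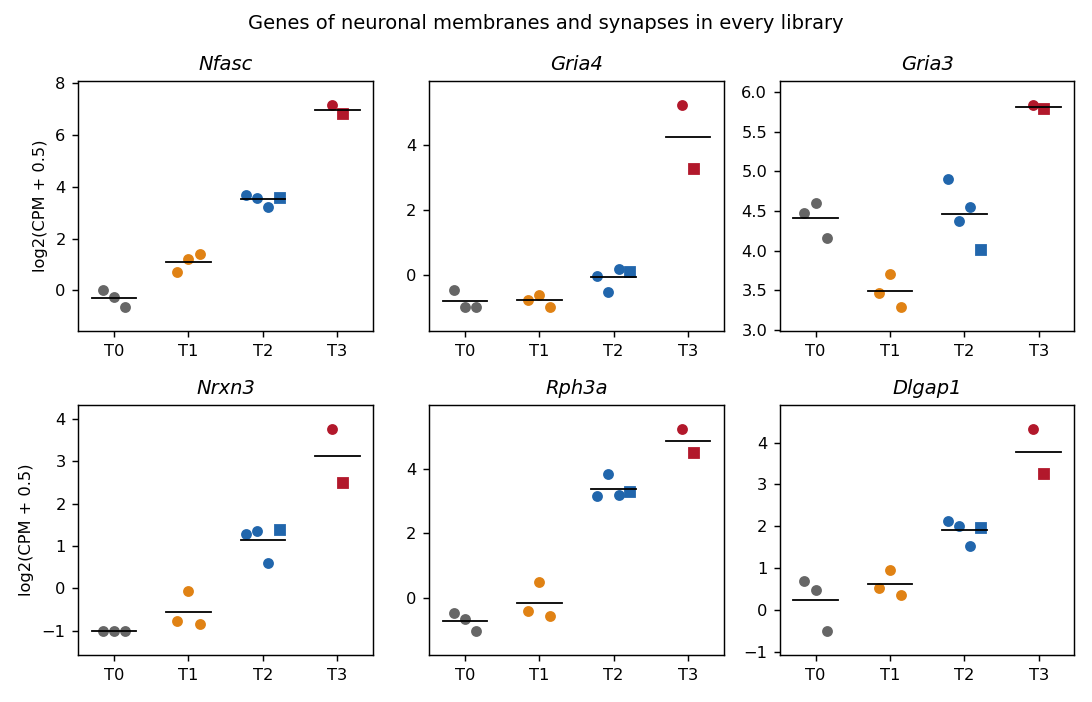
Points are single libraries with log2(CPM + 0.5) on the y axis, the line is the group mean, and squares mark replicate 4. Both T3 libraries lie above all T2 libraries in all 6 genes. The T3 pair is close for Nfasc and Gria3 and apart for Gria4, at 37.4 and 9.19 CPM.

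The wider synaptic and channel lists did not move in one direction in both T3 libraries. The presynaptic median against the T2 mean was 0.30 in replicate 1 and -0.14 in replicate 4, the glutamate receptor and scaffold median 0.31 and -0.10, and the sodium and calcium channel median 0.49 and -0.17. In the fit of both T3 libraries 14 of 18 sodium and calcium channel genes and 11 of 17 potassium channel genes were positive, beside 51.2% of all genes. The log2 fold changes ran from -0.61 to 3.055 in the first list and from -0.78 to 3.476 in the second. Replicate 1 was the higher T3 library in 28 of 31 presynaptic genes, 25 of 28 glutamate receptor and scaffold genes, 14 of 17 potassium channel genes and 13 of 18 sodium and calcium channel genes, against 6177 of 12599 genes overall. Replicate 4, the library with more cell cycle RNA, was thus the one with less RNA of most of these synaptic and channel genes. Of the 35 channel genes tested none was called by edgeR, 6 were higher and 3 lower at an unadjusted p under 0.05, and DESeq2 called 4 higher and 2 lower. Scn8a, the sodium channel of the mature initial segment, illustrates the split, with 144, 200.5, 140.4 and 112 CPM at T2 and 223 and 84.1 CPM at T3, on either side of the T2 range. Kcnd2, a channel of the A-type potassium current, was at 189, 194, 200.3 and 168 CPM at T2 and 216 and 118 CPM at T3. Cacna2d1, a calcium channel accessory subunit, was at 226, 306, 203 and 234 CPM at T2 and lower in both T3 libraries, at 152 and 165 CPM, and missed the threshold (adjusted p = 0.109).

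**Figure D4:**
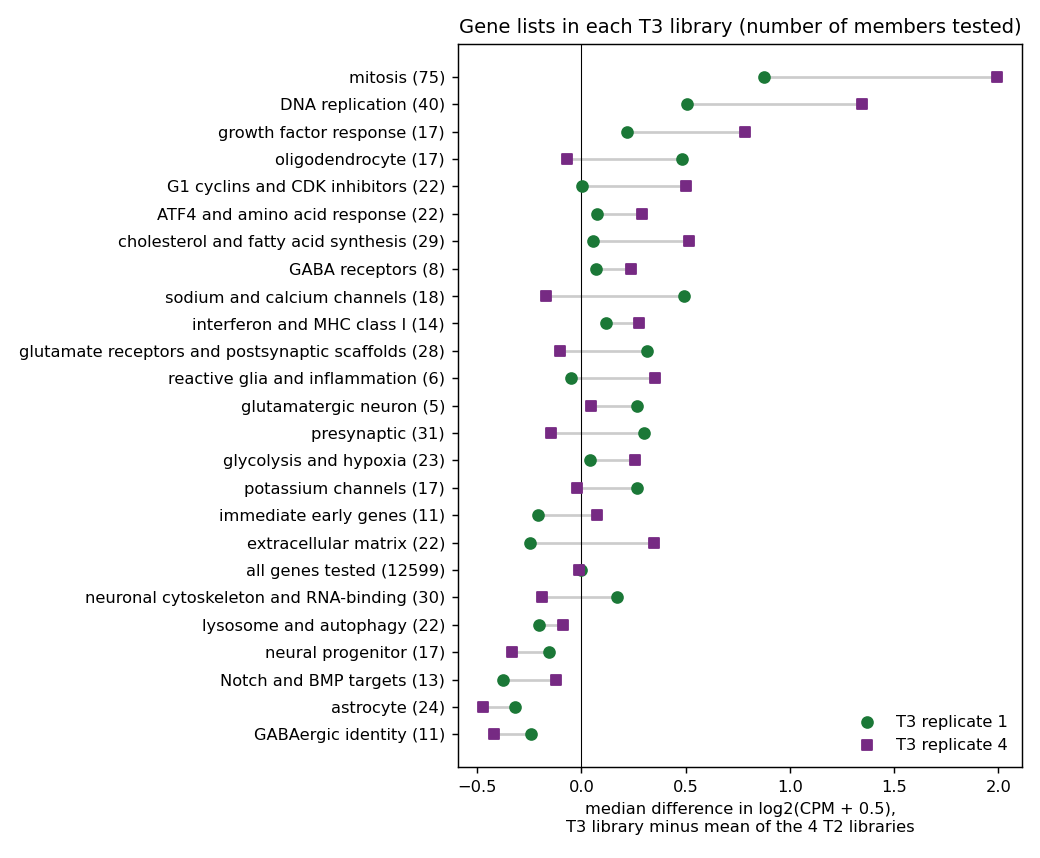
For each gene list, with the number of members tested in parentheses, the x axis gives the median difference in log2(CPM + 0.5) between a T3 library and the mean of the 4 T2 libraries, circles for replicate 1 and squares for replicate 4. Mitosis (0.88 and 1.99) and DNA replication (0.51 and 1.34) lie farthest to the right in both libraries, whereas presynaptic genes lie on both sides of 0 (0.30 and -0.14).

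General neuronal genes showed no call. Of 30 cytoskeletal and RNA-binding genes none was called by edgeR (2 higher and 2 lower at an unadjusted p under 0.05, and 1 each way by DESeq2), and the median was -0.013. Tubb3, neuronal class III β-tubulin, was at 123, 126, 173 and 120.0 CPM at T2 and 176 and 89.7 CPM at T3, and Mtap2, the dendritic protein MAP2, at 1762, 1991, 1803 and 1563 and at 1933 and 1315 CPM. Rbfox3, which encodes the antigen NeuN, was low throughout, at 1.25, 2.32, 1.19 and 2.08 CPM at T2 and 0.998 and 1.62 CPM at T3. The Elavl genes encode RNA-binding proteins of the Hu family. Elavl3 was at 17.3, 18.1, 18.3 and 14.8 CPM at T2 and at 36.8 and 11.0 CPM in T3 replicates 1 and 4, one above and one below all T2 libraries (log2 fold change 0.50 ± 0.37, adjusted p = 0.561). Elavl1, the ubiquitous member, was at 145, 148, 137 and 132 CPM and then 157 and 169 CPM (adjusted p = 0.310). Elavl2 was at 39.5, 44.3, 38.1 and 28.8 CPM and then 37.9 and 32.5 CPM, and Elavl4 at 3.09, 2.51, 1.83 and 2.88 CPM and then 2.25 and 2.60 CPM, with adjusted p of 0.858 and 0.922.

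Of 29 listed genes of GABAergic identity 11 passed the filter on low counts, with a median of -0.47. Gad1, which makes GABA from glutamate, was at 56.4, 54.2, 44.0 and 47.5 CPM at T2 and at 48.3 and 24.0 CPM at T3. Replicate 1 lay within the T2 range and replicate 4 below it, and the difference was not called (log2 fold change -0.47 ± 0.25, adjusted p = 0.390). Gad2, the other GABA-making enzyme, and Slc32a1, the vesicular GABA transporter, had at most 1 count in any T2 or T3 library, and so had Dlx2, Dlx5 and Dlx6, factors of ventral forebrain neurons. The GAD-positive label of T3 could thus be checked on Gad1 alone. Both T3 libraries stood above growing cells, at 4.04, 2.78 and 1.20 CPM in T0 replicates 1 to 3. Neither exceeded the T2 range, and the label does not say that T3 is higher than T2. Gsx1 (chromosome 5, 148000272 to 148002523, plus strand), a homeobox factor of ganglionic eminence progenitors, rose from 2.22, 2.14, 0.731 and 1.72 CPM to 11.2 and 5.51 CPM (log2 fold change 2.30 ± 0.41, adjusted p = 0.0474), with 1.70 without T3 replicate 1 and 2.71 without T3 replicate 4. Of 8 GABA receptor and chloride transport genes none was called by edgeR (2 higher and 2 lower at an unadjusted p under 0.05, 0 and 1 by DESeq2). Gabbr1, a subunit of the metabotropic GABA receptor, was at 257, 249, 307 and 263 CPM at T2 and 197 and 131 CPM at T3, below T2 in both libraries (adjusted p = 0.0799). Neurod1, which marks glutamatergic and other late neuronal precursors, was the 1 gene called by edgeR among 5 tested of the glutamatergic list. Over all genes 0.500% were called higher. Neurod1 was at 2.32, 1.86, 1.46 and 1.96 CPM at T2 and 4.66 and 6.49 CPM at T3 (log2 fold change 1.54 ± 0.28, adjusted p = 0.0492). Neurog2, a proneural factor of the same list named after its values were seen, was lower in both T3 libraries, at 18.2, 15.8, 24.5 and 11.9 CPM at T2 and 7.24 and 3.03 CPM at T3, and was called by DESeq2 but not by edgeR (log2 fold change -1.74 ± 0.39, edgeR adjusted p = 0.0705).

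The oligodendrocyte list showed the same split between the T3 libraries. Of 29 genes 17 were tested, and 11 were positive with a median of 0.33, beside 51.2% and 0.0066 over all genes. The median was 0.48 in replicate 1 and -0.070 in replicate 4. At an unadjusted p under 0.05 there were 7 higher and 0 lower, beside 9.45% and 7.57% of all genes. DESeq2 called 3 higher and 0 lower. Neu4, a sialidase of the oligodendrocyte lineage, was the 1 called by edgeR, beside the 0.500% of all genes called higher. It was at 0.965, 0.650, 0.914 and 0.920 CPM at T2 and 6.41 and 2.27 CPM at T3 (log2 fold change 2.34 ± 0.43, adjusted p = 0.0492). Erbb3, a neuregulin receptor of glial precursors, was called outside the list, with 1.54, 0.557, 0.914 and 1.29 CPM at T2 and 15 and 3.89 CPM at T3 (log2 fold change 3.13 ± 0.53, adjusted p = 0.0444). Both were higher in T3 replicate 1 than in replicate 4, and leaving out T3 replicate 1 or 4 moved the log2 fold change over 1.38 to 2.87 for Neu4 and 1.83 to 3.77 for Erbb3. The lineage factors Olig1 and Olig2, which are also active in ventral neural progenitors, were abundant in all libraries, with means of 927 and 345 FPKM at T2. In T3 replicates 1 and 4 Olig1 was at 1106 and 1224 FPKM and Olig2 at 401 and 410 FPKM. Of the myelin genes, Mag, Cldn11 and Tspan2 had at most 2 counts in any of the 6 libraries, and Mbp at most 9.

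Ephb1 (chromosome 9, 101824458 to 102257023, minus strand), a receptor for B-type ephrins, was at 120.3, 125, 179 and 140.5 CPM at T2 and 31.2 and 20.9 CPM at T3 (log2 fold change -2.43 ± 0.23, adjusted p = 0.0117), beside 2.79 CPM at T0 and 96.7 CPM at T1. Both T3 libraries were thus below T2 and still above T0. Adcyap1r1, the PAC1 receptor for the neuropeptide PACAP, fell from 150.5, 154, 150.1 and 180.5 CPM to 46.3 and 30.4 CPM (log2 fold change -2.04 ± 0.18, adjusted p = 0.0117). A pair of Wnt inhibitors fell as well. Frzb, a decoy for Wnt ligands, went from 37.4, 29.0, 52.7 and 45.0 CPM to 7.41 and 9.08 CPM (log2 fold change -2.32 ± 0.26, adjusted p = 0.0199). Apcdd1, which binds Wnt and its receptor at the membrane, went from 210.4, 234, 260.2 and 297 CPM to 76.5 and 49.1 CPM (log2 fold change -1.99 ± 0.21, adjusted p = 0.0162).

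Kcnh7, a potassium channel of the ERG family outside the list, had the largest fall among the called genes whose mean log2 CPM reached 1, from 4.15, 4.27, 4.93 and 4.05 CPM to 0.749 and 0.541 CPM (log2 fold change -2.71 ± 0.33, adjusted p = 0.0214). Pkd2l1, a cation channel known from neurons that contact the cerebrospinal fluid, went from 13.8, 13.5, 21.9 and 15.4 CPM to 3.91 and 3.03 CPM (adjusted p = 0.0232). Slc14a2, a urea transporter, went from 99.0, 98.3, 142 and 160.0 CPM to 39.9 and 19.9 CPM (adjusted p = 0.0382), with a log2 fold change of -2.65 without T3 replicate 1 and -1.65 without T3 replicate 4. The remaining large falls were in Kndc1, at 7.62, 11.6, 8.87 and 12.5 CPM at T2 and 1.75 and 1.84 CPM at T3, in the ubiquitin ligase gene March4, at 8.49, 12, 18.4 and 15.8 CPM and then 3.08 and 2.49 CPM, and in Cdcp1, at 1.93, 2.69, 4.11 and 3.25 CPM and then 0.499 and 0.541 CPM. Their log2 fold changes were -2.50 ± 0.30, -2.28 ± 0.35 and -2.51 ± 0.46. In all of these genes the T3 libraries differed from each other by less than they differed from the lowest T2 library.

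**Figure D5:**
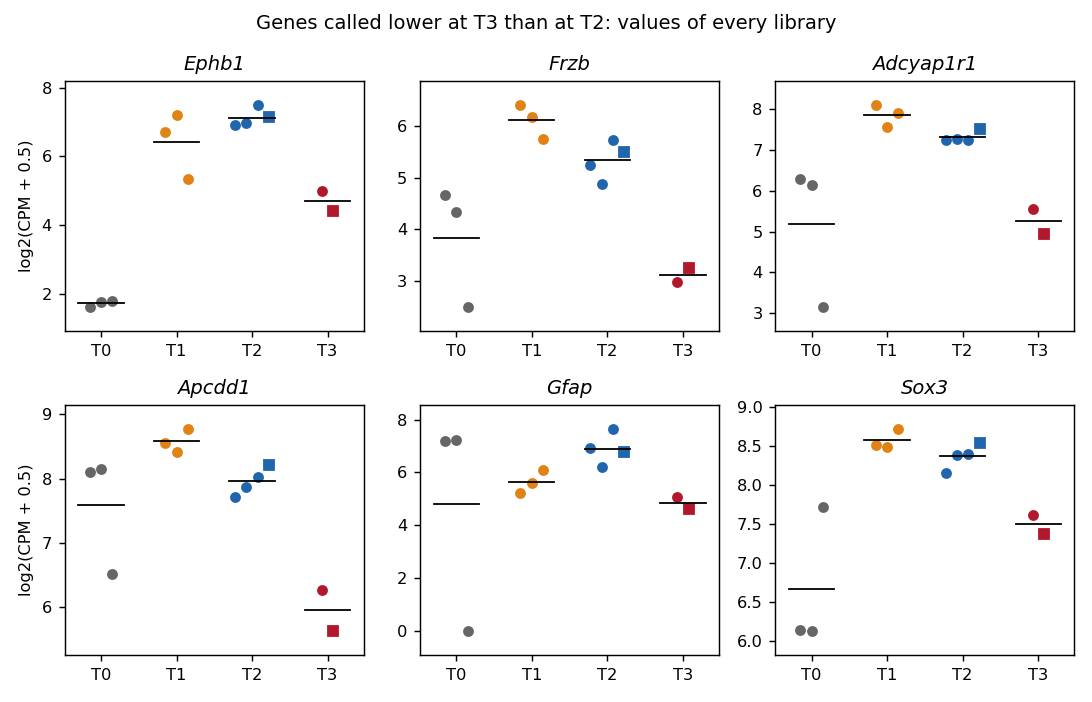
Points are single libraries with log2(CPM + 0.5) on the y axis, the line is the group mean, and squares mark replicate 4. In all 6 genes both T3 libraries lie below all T2 libraries. Gfap, Frzb, Adcyap1r1 and Apcdd1 also show the wide spread of T0, where 1 of the 3 libraries is far below the other two (Gfap at 147, 149 and 0.495 CPM).

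Astrocyte and progenitor genes were negative more often than positive, beside 51.2% positive over all genes. Of 24 tested astrocyte genes 18 were negative, with a median of -0.28, 1 was called lower and 0 higher by edgeR, and 10 were lower and 2 higher at an unadjusted p under 0.05, beside 7.57% lower and 9.45% higher over all genes. Gfap, the astrocyte intermediate filament, was at 121, 72.5, 200.2 and 108 CPM at T2 and 33.3 and 24.0 CPM at T3 (log2 fold change -2.12 ± 0.38, adjusted p = 0.0487). Of 17 neural progenitor genes 12 were negative (median -0.22) and 1 was called, beside the 0.691% of all genes called lower. At an unadjusted p under 0.05 there were 0 higher and 4 lower, and DESeq2 called 0 higher and 3 lower. Sox3, a transcription factor of neural progenitors, fell from 285, 334, 335 and 370.1 CPM to 195 and 166 CPM (log2 fold change -0.87 ± 0.14, adjusted p = 0.0395). Nes, the progenitor filament nestin, was at 1026, 1158, 1015 and 977 CPM at T2 and 1012 and 1312 CPM at T3 (adjusted p = 0.634), so the cell cycle genes were higher without a called change of Nes. Of 13 Notch and BMP target or pathway genes 10 were negative (median -0.26) and 1 was called, beside the 0.500% of all genes called higher. At an unadjusted p under 0.05 there were 2 higher and 5 lower, and DESeq2 called 1 higher and 3 lower. The 1 called was Dll3, a Notch ligand that acts inside the cell, and it rose from 12.6, 11.6, 11.8 and 6.93 CPM to 37.9 and 24.7 CPM (log2 fold change 1.56 ± 0.26, adjusted p = 0.0437).

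The metabolic lists held no call. Of 29 cholesterol and fatty acid synthesis genes 26 were positive with a median of 0.28 (0.057 in replicate 1 and 0.52 in replicate 4), and none was called by edgeR (5 higher and 1 lower at an unadjusted p under 0.05, 3 and 0 by DESeq2). Sqle, the squalene epoxidase of sterol synthesis, was at 328, 348, 243 and 352 CPM at T2 and 463 and 563 CPM at T3 (adjusted p = 0.0761). The median was 0.16 over 23 glycolysis and hypoxia genes, 0.28 over 22 ATF4 and amino acid response genes, 0.20 over 14 interferon genes and -0.15 over 22 lysosomal genes, of which 19 were negative. None of these was called by edgeR. At an unadjusted p under 0.05 the counts higher and lower were 3 and 3, 7 and 1, 4 and 1, and 0 and 4, and by DESeq2 0 and 1, 2 and 1, 2 and 1, and 0 and 2, in the same order. Of 22 extracellular matrix genes 1 was called, beside the 0.691% of all genes called lower. It was Nid1, a basement membrane linker, which went from 57.0, 55.8, 108 and 58.0 CPM to 20.2 and 18.9 CPM (log2 fold change -1.83 ± 0.30, adjusted p = 0.0437). Of 6 genes of reactive glia Serpina3n, a protease inhibitor, rose from 8.69, 6.50, 6.49 and 9.08 CPM to 15 and 22.5 CPM, and Gbp2, an interferon-induced GTPase, fell from 11.0, 11.4, 15.9 and 13.5 CPM to 5.49 and 3.89 CPM, with adjusted p of 0.0486 and 0.0449.

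Rises outside the lists were in Csmd1, at 1.25, 1.49, 1.92 and 1.17 CPM at T2 and 17.2 and 4.00 CPM at T3, and in Fry, which binds microtubules, at 4.73, 4.92, 4.57 and 4.97 CPM and then 38.2 and 10.2 CPM. Both were about 4-fold higher in T3 replicate 1 than in replicate 4. Chrna4, a nicotinic receptor subunit, had the opposite order, with 1.54, 1.39, 1.19 and 1.35 CPM at T2 and 3.49 and 13.3 CPM at T3. Glycam1, which encodes a mucin, was at 3.09, 2.69, 0.823 and 4.23 CPM at T2 and 14.7 and 13.3 CPM at T3, and Mybpc1, a myosin-binding protein, at 1.64, 1.02, 1.74 and 0.613 CPM and then 6.57 and 4.22 CPM. The log2 fold changes of these 5 were 2.89 ± 0.51, 2.34 ± 0.41, 2.60 ± 0.47, 2.34 ± 0.42 and 2.15 ± 0.41. Leaving out T3 replicate 1 or 4 moved it over 1.47 to 3.57 for Csmd1, 1.08 to 2.99 for Fry and 1.35 to 3.28 for Chrna4.

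The genes that differed most within the T3 pair were not called between the time points. Toward replicate 4 they were Dhrs7c (1.83 CPM in replicate 1 and 23.5 CPM in replicate 4), Lars2 (58.4 and 494), Clic5 (5.49 and 45.9), Ppia (2.41 and 17.7) and Ilvbl (3.41 and 24.0). Toward replicate 1 they included Dpp6 (35.1 CPM in replicate 1 and 4.76 CPM in replicate 4), Zfp804a (18.1 and 2.70), A330076H08Rik (21.9 and 3.79) and Pcp4 (17.3 and 3.03). Ppia has near-identical copies elsewhere in the genome, so its counts are uncertain. Lars2 was also high in T2 replicate 4, at 236 CPM against 68.1 to 98.9 CPM in the other T2 libraries. Dpp6, an accessory subunit of A-type potassium channels, was at 20.6, 25.0, 22.4 and 31.5 CPM at T2, with T3 replicate 1 above the T2 range and T3 replicate 4 below it.

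Markers of microglia, endothelium, fibroblasts and blood were low in both groups. Of 15 microglial genes 1 (Cd68, which other cells also use) exceeded 3 counts in any T2 or T3 library, and the list summed to 5.20 to 6.95 CPM at T2 and 6.06 to 7.16 CPM at T3. The 11 endothelial genes summed to 6.13 to 7.05 CPM and 5.91 to 9.73 CPM, the 12 of fibroblasts and pericytes to 2.90 to 4.11 and 2.41 to 6.06 CPM, and the 6 of blood found in the files to 0.371 to 0.869 and 0.649 to 1.33 CPM. The 10 of ependyma and choroid plexus were higher and summed to 34.8 to 47.2 and 32.9 to 44.2 CPM, of which most was Foxj1, at 23.3, 24.1, 28.7 and 26.0 CPM at T2 and 23.0 and 32.1 CPM at T3. Of these 5 lists no member was called by edgeR, and 1 (Folr1, lower at T3) passed an unadjusted p of 0.05 and was called by DESeq2.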

How the data were processed

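Poly(A) RNA of 12 cultures had been sequenced by the study. Per the labels and the submitters' processing notes, reads were called with CASAVA 1.8 and aligned to mm9 with TopHat2 2.0.6 over Bowtie 0.12.7.0. The authors counted them per gene with HTSeq 0.6.0 and deposited raw counts per gene, and DESeq2 1.0.0 is also listed in the notes. The authors also deposited FPKM, which are length-scaled. They were used here for levels between genes and for the levels of a few genes at T2 and T3, and in no test. Whether counting used strand is not given in the sources used here, so overlapping and antisense genes are uncertain.

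The last 5 rows, which name no gene, were removed and 22609 genes were kept. Of uniquely aligned reads 18.8% to 24.1% fell in no gene and 0.681% to 0.827% were ambiguous, and 26.0% to 32.9% of all alignments were not unique. The 12599 genes left by edgeR's filterByExpr were scaled by TMM and tested with edgeR 4.0.16 in R 4.3.3, by its quasi-likelihood test on the 4 T2 and 2 T3 libraries with no covariate and a threshold of 0.05 on the adjusted p. CPM are counts over the library size, scaled by TMM over all 12 libraries (factors 1.001 to 1.039 for the T2 and T3 libraries), and differences of single libraries used log2(CPM + 0.5). Tables were made with Python 3.11.15, numpy 2.4.6 and pandas 2.3.3, and the test was tested on simulated data. At 8910724 to 16048942 counts per library, genes of a few CPM rest on few counts and are the least precise.

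The samples, the gene lists and the tests were chosen with earlier results of these data known. Named genes were the 12 largest rises and 12 largest falls among called genes whose groups did not overlap and whose mean log2 CPM was at least 1, up to 6 called members of each list or, where none was called, up to 3 of its most abundant, 10 genes always given (Gad1, Tubb3, Rbfox3, Mtap2, Nes, Mki67 and Elavl1 to Elavl4), and the 5 genes farthest apart in each direction within the T3 pair at a mean of at least 10 CPM. Bmper, Rnd3, Olig1, Olig2, Mag, Cldn11, Tspan2, Mbp, Gad2, Slc32a1, Dlx2, Dlx5, Dlx6 and P4ha2 were named after their values were seen. Alternatives were DESeq2 1.42.0, its size factors, library size alone, no filter, at least 10 counts in each library, a fit of all 12 libraries, a replicate block, the set of replicate numbers as a covariate, fits within replicate numbers, and leaving out each library. The T3 libraries were not copies of each other. The FPKM column of T3 replicate 4 holds both a 2 and a 4 in its name and was matched by the 4, since no T3 sample is numbered 2, and whether it is that culture is uncertain. A few genes that the rule named are not reported here.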

Additional observations from a re-analysis of the deposited data

Results flagged for a closer look

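Of 105 named genes tested within the 4 T2 libraries, 9 had 1 library set apart from the other three by a gap larger, as a part of the range, than Dixon's 95% critical value. Chance alone gives about 1 in 20 groups. T2 replicate 3 was that library in 6 of the 9.

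T2 replicate 3 was high for Nid1, at 108.2 CPM against 55.8 to 58.0 CPM in the other T2 libraries, for Tubb3, at 172.6 CPM against 120.0 to 126 CPM, for Ppia, at 16.73 CPM against 2.58 to 3.96 CPM, and for Eng, at 1.828 CPM against 1.11 to 1.23 CPM. It was low for Psat1, at 336.7 CPM against 361 to 365 CPM, and for Nrxn3, at 1.005 CPM against 1.93 to 2.08 CPM. For Nid1 and Nrxn3, which were called, both T3 libraries lay outside the range of all 4 T2 libraries.

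T2 replicate 2 was high for Rph3a, at 13.84 CPM against 8.4 to 9.2 CPM, and low for Neu4, at 0.65 CPM against 0.914 to 0.965 CPM. T2 replicate 4 was high for Adcyap1r1, at 180.5 CPM against 150.1 to 154 CPM, and both T3 libraries were below all of these.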

How the results depend on the processing

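Called genes, higher and lower at T3, numbered 430 and 330 with DESeq2, 423 and 296 with no filter, 18 and 24 in one fit of all 12 libraries, 391 and 313 for T3 replicate 1 against T2 replicates 1 and 2, and 823 and 636 for T3 replicate 4 against T2 replicates 3 and 4. Genes higher numbered 99 with library size only and 40 with at least 10 counts in each library. Leaving out 1 library gave 1 to 832 genes higher and 0 to 515 lower. All 150 called genes kept their direction under every alternative that tested them (142 of them with at least 10 counts in each library). Their groups did not overlap, which left little room for another outcome. Of the calls 42.0% were higher, 56.6% with DESeq2 and 58.8% with no filter.

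The median of DNA replication genes was 0.28 and that of mitosis genes 0.52 for T3 replicate 1 against T2 replicates 1 and 2, and 2.36 for mitosis genes for T3 replicate 4 against T2 replicates 3 and 4. Leaving out 1 library gave medians of 0.49 to 1.34 and 0.88 to 1.99. Some named genes that were not called changed sign in the fits within replicate numbers. Those that passed the threshold there with the other sign were, for T3 replicate 1 against T2 replicates 1 and 2, Dpp6 (0.62), Ilvbl (-1.38), Lars2 (-0.52) and Tubb3 (0.50), and for T3 replicate 4 against T2 replicates 3 and 4, Pcp4 (-1.57).

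T2 and T3 share the replicate numbers 1 and 4, which no source ties to a culture, and the differences between replicates 1 and 4 at T2 and at T3 had a correlation of 0.155 across genes. With the number as a replicate block 5 genes were called higher and 9 lower, and with the block in 12 libraries 3 and 4. The cause of these changes was not tested. With 2 T3 libraries the T3 spread is poorly known, and the lone T3 library of a fit without the other is assumed to vary like T2.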

Other observations

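The genes below were chosen after their values were seen, all but Cdkn1a among the 150 called. Zmat3, which encodes an RNA-binding zinc finger protein, was at 96.6, 102, 83.5 and 82.6 CPM in T2 replicates 1 to 4 and at 138 and 148 CPM in T3 replicates 1 and 4 (log2 fold change 0.65 ± 0.12, edgeR adjusted p = 0.0458). Eda2r, a receptor of the TNF receptor family, was at 61.1, 60.5, 45.1 and 49.6 CPM and then 84.5 and 115 CPM (log2 fold change 0.89 ± 0.16). Lrdd, which encodes the death domain protein PIDD, was at 5.69, 6.04, 3.75 and 5.58 CPM and then 10.9 and 21.9 CPM (log2 fold change 1.63 ± 0.30). Cdkn1a, the CDK inhibitor p21, was at 49.5, 43.1, 41.7 and 43.0 CPM and then 70.8 and 197 CPM and was not called (adjusted p = 0.0525). T3 replicate 4 was the higher library for all 4, as it was for the mitosis genes. Mybl1, a transcription factor of the MYB family, rose as well, from 18.6, 20.1, 15.3 and 12.8 CPM to 58.8 and 43.7 CPM (log2 fold change 1.63 ± 0.20).

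Ntrk2, the receptor for the BDNF in medium B, was lower at T3, at 485 and 411 CPM against 765, 818, 1055 and 889 CPM at T2 (log2 fold change -0.97 ± 0.16, adjusted p = 0.0437). Kitl, the ligand of the receptor KIT, fell from 495, 635, 450.3 and 589.6 CPM to 222 and 226 CPM (log2 fold change -1.27 ± 0.16). The BMP-binding proteins encoded by Bmper and Nbl1 fell with log2 fold changes of -1.29 ± 0.14 and -1.22 ± 0.19, Bmper from 27.2, 28.4, 31.3 and 28.8 CPM to 11.5 and 12.1 CPM. Hes3, a bHLH repressor of neural stem cells, fell from 9.07, 9.29, 12.7 and 10.9 CPM to 4.33 and 2.60 CPM (log2 fold change -1.58 ± 0.28, adjusted p = 0.0458). In each of these 5 genes both T3 libraries lay below all 4 T2 libraries.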
